A study of Mus musculus with 6 samples.

Results

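Levels of 8 genes that take up and metabolise the transmitters glutamate, GABA and glycine in glia were followed in ribosome-bound mRNA of the dentate gyrus. The genes Slc1a2, Slc1a3, Glul, Slc6a11, Slc6a9, Slc38a3, Glud1 and Abat were listed by name, and all 8 were found among the 37620 genes of the deposited tables. The mice carried Gli1CreERT2, which upon tamoxifen (TAM) recombines in cells that express Gli1, and 1 floxed allele of the ribosomal protein gene Rpl22 (Rpl22HA f/+) that recombination turns into an HA-tagged form (RiboTag). They were either Klf9 +/+ or Klf9 f/f, so that both groups received TAM and carried Cre and the tagged ribosome, and differed in whether recombination also deletes Klf9, a Krüppel-like transcription factor. There were 3 samples of each genotype, and each sample was a pool of 6 dentate gyri from 3 mice. Mice were 2–3 months old and received 3 injections of 250 mg/kg spaced 12 hr apart, and tissue was taken 4 days after the last one. By the study's account the driver labels both radial-glial neural stem cells (RGLs) and astrocytes, and markers of other cells were also read in the samples, so that a level is not that of a single cell type. Library names divide the samples into series YTa22, with replicates 1 and 2 of each genotype, and series YTa32, with replicate 3 of each. Replicate numbers were assigned within a genotype and pair no samples. In such bulk samples, fewer cells of a type and less RNA per cell cannot be told apart.

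Glutamate released at synapses is cleared mainly by glia, through sodium-driven carriers on astrocytes and radial glia. Inside the cell it is turned into glutamine, which is handed back to neurons to rebuild glutamate and GABA, or it is burned in the mitochondrion. GABA and glycine are removed by carriers of another family, and GABA is broken down by a transaminase. Slc1a3 (GLAST) and Slc1a2 (GLT-1) are the glial glutamate carriers, and GLAST is widely used as a marker of astrocytes and of RGLs.

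The question asked here was whether the mRNAs of this uptake and recycling machinery on tagged ribosomes differed between Klf9 f/f and Klf9 +/+. Each sample held 21594714 to 66343759 counts on genes, fewer in both YTa32 samples than in all 4 of YTa22, and members had between 623 and 290520 counts in a sample. Klf9 itself was at 200.9, 203.9 and 139.0 CPM (counts scaled to a library of 1e+06 after TMM normalisation) in the Klf9 +/+ replicates and 114.3, 121.3 and 120.0 CPM in the Klf9 f/f replicates, so that the targeted gene was lower in every Klf9 f/f sample but far from 0 (log2 fold change -0.59 ± 0.15, SE). Markers of astrocytes were abundant, with summed levels of 10211 to 15816 CPM over 15 genes, and 12 markers of radial glia summed to 2994 to 4259 CPM. The 11 markers of granule and other neurons summed to 1500 to 1985 CPM, and 10 meningeal markers to 7408 to 16733 CPM. Most of the meningeal sum was Ptgds, at 6854 to 15852 CPM, and the next highest, Dcn, was at 193 to 613 CPM. Both neuronal and meningeal mRNA was thus present in all samples.

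The DNA just upstream of a RefSeq start, which need not be the main start of the gene, is shown for the 3 members with the highest levels per length, since Klf9 is known to bind GC-rich boxes. RefSeq windows of 250 bases before the start (build GRCm38.p6) matched 6 of the 8 genes, all but Slc38a3 and Abat, with 8 windows in all because Slc6a9 has 3 starts. Capitals mark the letters GGGCGG (a GC box) or CACCC on either strand, and matches may overlap. The windows lie at chr15:8710808-8711057 on the minus strand for Slc1a3, chr1:153899679-153899928 on the plus strand for Glul, and chr2:102706188-102706437 on the plus strand for Slc1a2.
Slc1a3: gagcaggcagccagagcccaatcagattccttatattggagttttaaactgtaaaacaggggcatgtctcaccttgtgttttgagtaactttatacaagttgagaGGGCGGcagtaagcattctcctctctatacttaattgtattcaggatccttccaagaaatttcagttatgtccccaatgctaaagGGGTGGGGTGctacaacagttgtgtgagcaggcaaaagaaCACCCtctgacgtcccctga
Glul: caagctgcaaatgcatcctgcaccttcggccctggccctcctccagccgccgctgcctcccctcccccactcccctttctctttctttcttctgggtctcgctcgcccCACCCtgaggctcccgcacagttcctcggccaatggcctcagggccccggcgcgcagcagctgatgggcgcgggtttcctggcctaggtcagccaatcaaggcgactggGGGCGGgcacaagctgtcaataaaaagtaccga
Slc1a2: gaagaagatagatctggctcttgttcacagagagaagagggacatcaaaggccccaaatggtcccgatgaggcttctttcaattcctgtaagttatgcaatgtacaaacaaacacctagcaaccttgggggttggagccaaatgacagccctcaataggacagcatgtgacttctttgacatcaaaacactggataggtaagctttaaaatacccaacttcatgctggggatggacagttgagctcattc

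The window of Slc1a3 held 1 GGGCGG and 3 CACCC, that of Glul held 1 of each, and that of Slc1a2 held none of either. Slc1a2 has 13 annotated transcripts and only 1 window here. Other starts of it were not read, so the lack of matches holds for that window alone. The Slc6a11 window held 3 GGGCGG and 1 CACCC, and that of Glud1 held 3 GGGCGG with a GC content of 82.0%. Over the 8 windows, 5 held GGGCGG and 5 held CACCC. Among all 32851 RefSeq windows of the same length, 32.7% held GGGCGG and 52.0% held CACCC. A match is a run of letters, and whether Klf9 binds there was not measured.

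Read per kilobase of annotated exon, the scale on which the levels of members are compared with each other, the members spanned a 103.5-fold range. Slc1a3 was the highest, at 429 ± 89.1 (SD over 6 samples) CPM per kb, and was 86th of the 15056 genes tested. Glul, which makes glutamine from glutamate and ammonia, followed at 263 ± 78.0 (SD, n = 6) CPM per kb, and Slc1a2 at 135 ± 22.8 (SD, n = 6). Glud1, the mitochondrial glutamate dehydrogenase, stood at 88.8 ± 9.46 (SD, n = 6) CPM per kb and was the member that varied least in proportion. The GABA carrier Slc6a11 (GAT3) stood at 35.4 ± 16.9, the glutamine carrier Slc38a3 (SNAT3) at 18.7 ± 5.96 and Abat, the GABA transaminase, at 13.5 ± 3.69 (SD, n = 6 each). Slc6a9 (GlyT1), the glial glycine carrier, was the lowest at 4.14 ± 1.87 (SD, n = 6) CPM per kb.

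This order held in all 6 samples, although the ranges of some neighbours overlapped between samples. Slc1a3 overlapped with Glul, Slc6a11 with Slc38a3, and Slc38a3 with Abat. Within a sample the lead of Slc1a3 over Glul ran from 1.03-fold, in Klf9 +/+ replicate 1, to 2.22-fold. Slc1a3, Glul and Slc1a2 together made up 80.3% to 86.3% of the summed level per kb of the 8 genes. The ratio of Slc1a3 to Slc1a2, the 2 glial glutamate carriers, was 2.59, 2.87 and 3.39 in the Klf9 +/+ replicates and 4.12, 2.72 and 3.47 in the Klf9 f/f replicates, and the genotypes overlapped. Annotated exon length sets these values, and Slc1a2 has the longest exons of the 8, at 13.15 kb over 13 transcripts.

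**Figure D1:**
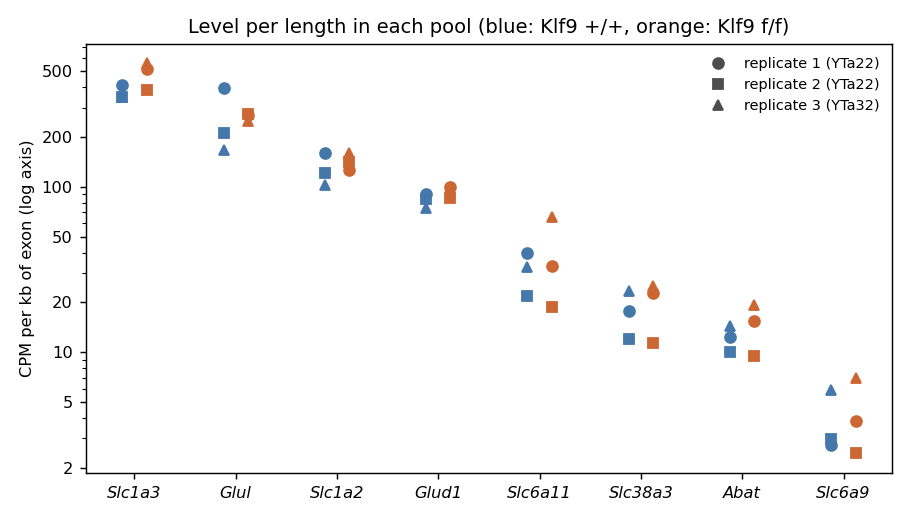
Level of each of the 8 genes in CPM per kb of exon on a log axis, one point per sample (blue Klf9 +/+, orange Klf9 f/f; symbols give the replicate and its library series). The genes fall from Slc1a3 at 348 to 557 CPM per kb to Slc6a9 at 2.44 to 7.00 CPM per kb, in the same order within each sample.

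None of the 8 members passed the threshold used for calls, a 1.2-fold change with an unadjusted p under 0.05 in edgeR's quasi-likelihood test. All 8 had a positive log2 fold change (Klf9 f/f over Klf9 +/+), from 0.085 for Glul to 0.39 for Slc1a3, with a median of 0.17 against 0.00084 over all genes tested. Of the 15056 genes tested, 7553 were positive. Slc1a2, Glul, Slc6a11, Slc6a9 and Slc38a3 turned negative when 1 or another sample was left out, and the median then ran from 0.11 to 0.37. Over all 15056 genes, 1.82% were called higher and 2.5% lower in Klf9 f/f, so a list of 8 would hold fewer than 1 call at that rate. At an adjusted p under 0.05 (edgeR's quasi-likelihood test, Benjamini-Hochberg), 0% of all genes were called, and each member had an adjusted p of 1.00. The likelihood-ratio test and DESeq2 each called 1 member, Slc1a3, at the same 1.2-fold threshold, and they gave 58 and 39 genes but no member at an adjusted p under 0.05.

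Slc1a3 (ENSMUSG00000005360, chromosome 15 of mm9, 8584124 to 8660764, minus strand) came nearest to a call. Its level was 3513, 2983 and 2970 CPM in Klf9 +/+ and 4434, 3295 and 4756 CPM in Klf9 f/f, in the order of replicates 1 to 3. Klf9 f/f replicates 1 and 3 lay above all Klf9 +/+ samples, while Klf9 f/f replicate 2 lay below Klf9 +/+ replicate 1. The log2 fold change was 0.39 ± 0.18 (SE) with a 95% interval of -0.012 to 0.80 (unadjusted p = 0.0560 from edgeR's quasi-likelihood test). Without Klf9 f/f replicate 2 it was called, at 0.55 (unadjusted p = 0.0179, the same test of edgeR). Without Klf9 +/+ replicate 1 it was also called, at 0.50 (unadjusted p = 0.0261, the same test of edgeR). It was 0.25 without replicate 3 of either genotype, and was then not called.

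Slc1a2 (ENSMUSG00000005089, chromosome 2 of mm9, 102498816 to 102630941, plus strand), the other glial glutamate carrier, also overlapped between genotypes. Its level was 2092, 1599 and 1348 CPM in the Klf9 +/+ replicates and 1656, 1870 and 2111 CPM in the Klf9 f/f replicates. The highest Klf9 +/+ sample and the highest Klf9 f/f sample were nearly equal. The log2 fold change was 0.17 ± 0.19 (SE) with a 95% interval of -0.26 to 0.61, a range that holds both no change and a change above 1.2-fold.

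Glul (ENSMUSG00000026473, chromosome 1 of mm9, 155747074 to 155756853, plus strand) changed in sign or call with the sample left out. In the Klf9 +/+ replicates it was at 1327, 709 and 557 CPM, and in the Klf9 f/f replicates at 907, 912 and 834 CPM. The Klf9 f/f samples lay close together, between the single high Klf9 +/+ replicate 1 and the other two Klf9 +/+ samples. The log2 fold change was 0.085 ± 0.25 (SE). Without Klf9 +/+ replicate 1 it was 0.46 and passed the threshold (unadjusted p = 0.0171, adjusted p = 1.00, edgeR's quasi-likelihood test), and without Klf9 +/+ replicate 2 it was -0.081.

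Slc38a3 (ENSMUSG00000010064, chromosome 9 of mm9, 107552970 to 107569705, minus strand), which moves glutamine across the glial membrane, was at 60.2, 40.6 and 79.2 CPM in Klf9 +/+, and in Klf9 f/f it was at 77.1, 38.5 and 84.5 CPM. Replicate 2 of each genotype was the lowest of its group, and the genotypes overlapped (log2 fold change 0.16, standard error 0.25). Glud1 (ENSMUSG00000021794, chromosome 14 of mm9, 35123913 to 35158330, plus strand), which links glutamate to the citric acid cycle, was at 368, 343 and 306 CPM in Klf9 +/+, and in Klf9 f/f it was at 408, 351 and 403 CPM. Only Klf9 f/f replicate 2 fell within the Klf9 +/+ range, and the log2 fold change was 0.20 ± 0.14 (SE), the smallest error of the 8 (95% interval -0.12 to 0.51).

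Among the GABA genes, Slc6a11 (ENSMUSG00000030307, chromosome 6 of mm9, 114081235 to 114199880, plus strand) was the most variable member. It was at 161, 89.3 and 134 CPM in Klf9 +/+, and in Klf9 f/f it was at 134, 76.2 and 268 CPM. The highest and the lowest of the 6 samples were both Klf9 f/f. The log2 fold change was 0.16 ± 0.33 (SE), the largest error of the 8. Abat (ENSMUSG00000057880, chromosome 16 of mm9, 8513522 to 8621661, plus strand), which degrades GABA, was at 96.1, 77.3 and 110.7 CPM in Klf9 +/+, and in Klf9 f/f it was at 118.9, 73.0 and 149.5 CPM. Here too Klf9 f/f replicate 2 was the lowest sample of all, and the log2 fold change was 0.24 ± 0.19 (SE). Without that sample Abat was called, at 0.45 (unadjusted p = 0.0211, adjusted p = 0.898, edgeR's quasi-likelihood test). With Klf9 f/f replicate 1 left out it was 0.049, and with replicate 3 of Klf9 +/+ or of Klf9 f/f left out it was 0.14 and 0.15.

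Slc6a9 (ENSMUSG00000028542, chromosome 4 of mm9, 117507111 to 117547803, plus strand), which clears glycine, was at 14.1, 15.3 and 30.1 CPM in Klf9 +/+, and in Klf9 f/f it was at 19.7, 12.5 and 36.0 CPM. Both YTa32 samples were above all 4 YTa22 samples, and the log2 fold change was 0.17 ± 0.19 (SE). Of the exons of Slc6a9, 30.2% overlap exons of other genes on the opposite strand, and of those of Abat 29.9%. Counting did not use strand, so reads there cannot be assigned to one gene, and the levels per kb of these 2 genes are uncertain.

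**Figure D2:**
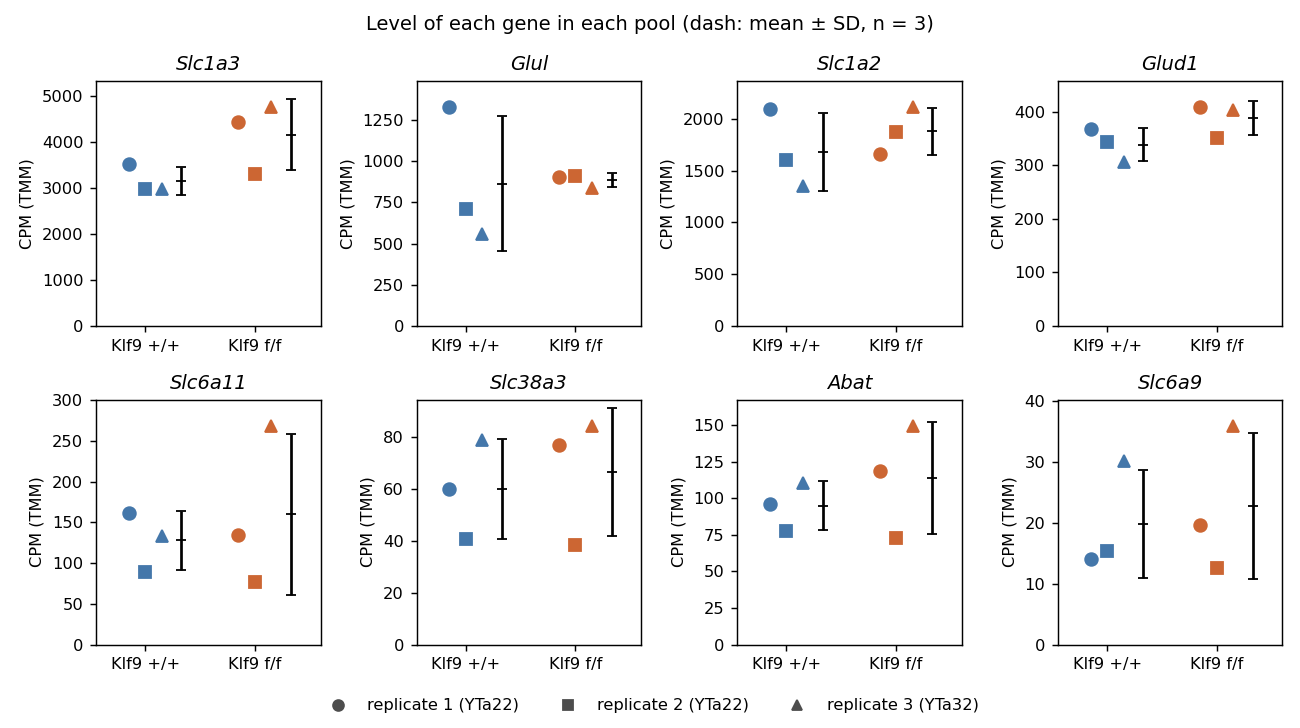
CPM after TMM scaling of each gene in the 6 samples (blue Klf9 +/+, orange Klf9 f/f; circle, square and triangle for replicates 1, 2 and 3), with the mean and SD of each genotype (n = 3) as a dash and bar; axes start at 0. Genotypes overlap for all 8 genes, and the single high Klf9 +/+ value of Glul, 1327 CPM, is seen beside the 3 close Klf9 f/f values.

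Within series YTa32, where each genotype has 1 sample, all 8 members were higher in Klf9 f/f, by 0.094 (Slc38a3) to 1.01 (Slc6a11) on the log2 CPM scale, with a median of 0.51. Between the same samples the mean log2 difference was 0.46 for the astrocyte markers and 0.32 for the radial glia markers. It was -0.0045 for the granule neuron markers and -0.77 for the meningeal markers. How many of all genes were higher there was not counted. Within series YTa22, with 2 samples against 2, 5 members were higher and 3 lower, and the differences ran from -0.25 (Slc6a11) to 0.24 (Slc1a3), with a median of 0.094. For 6 of the 8 the YTa22 difference was smaller than the gap between the samples of either genotype. The median size of the genotype difference in YTa22 was 0.10, against 0.35 between the Klf9 +/+ samples and 0.54 between the Klf9 f/f samples. The series YTa32 has no spread of its own, and its difference compares 2 pools.

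No member had all its Klf9 f/f samples on one side of all Klf9 +/+ samples within each series, where 7.78% of all genes tested did so upward and 5.53% downward. In each of the 8 genes Klf9 f/f replicate 2 lay below Klf9 +/+ replicate 1 of the same series YTa22. Klf9 f/f replicate 1, in turn, lay above Klf9 +/+ replicate 2 in all 8. The astrocyte markers had both orders in their mean log2 CPM. Their mean was 8.42 in Klf9 f/f replicate 2 against 8.57 in Klf9 +/+ replicate 1. It was 8.96 in Klf9 f/f replicate 1 against 8.27 in Klf9 +/+ replicate 2. The share of all genes with either order was not counted.

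Whether the genotype difference itself differed between series was tested as an interaction in edgeR, with 2 residual degrees of freedom. As YTa32 holds 1 pool of each genotype, the error of this test comes from YTa22 and from the spread shared across genes, and a difference between series cannot be told apart from a single deviant pool in YTa32. Only Slc6a11 passed an unadjusted p under 0.05, where 1.53% of all genes did. Its difference was 1.26 larger on the log2 scale in YTa32 than in YTa22 (standard error 0.55, unadjusted p = 0.0444, adjusted p = 1.00, quasi-likelihood test of edgeR).

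**Figure D3:**
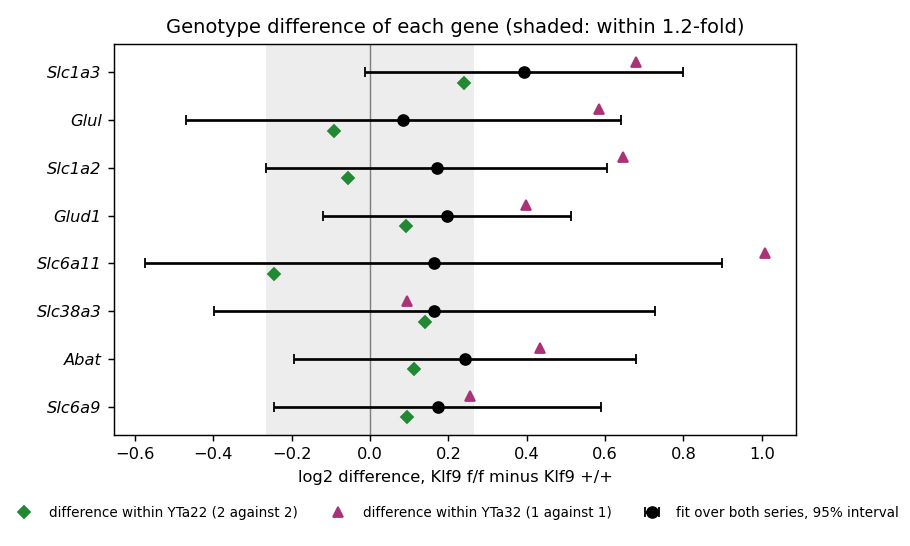
Log2 fold change of each gene (Klf9 f/f over Klf9 +/+) from the fit over both series with its 95% interval (black), and the difference of mean log2 CPM within YTa22 (green diamonds) and YTa32 (purple triangles); the grey band is a change below 1.2-fold. All 8 intervals include 0, and the YTa32 value lies above the YTa22 value for 7 of the 8 genes, Slc38a3 being the exception (0.094 against 0.14).

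The members tended to be high or low together in the same pool. With each gene's log2 CPM set against the mean of its series, 6 of the 8 were above that mean in Klf9 +/+ replicate 1 and 6 in Klf9 f/f replicate 1. In contrast 7 of the 8 were below it in replicate 2 of each genotype. In YTa32 all 8 were below it in the Klf9 +/+ sample and above it in the Klf9 f/f sample, 2 values that mirror each other by construction. The exceptions in YTa22 were Slc1a2 and Glul, which were below the mean in Klf9 f/f replicate 1 (-0.12 and -0.051), Slc6a9 and Slc1a3, below it in Klf9 +/+ replicate 1 (-0.11 and -0.0018), and Slc6a9 in Klf9 +/+ replicate 2 (0.014) and Slc1a2 in Klf9 f/f replicate 2 (0.060), which were above it. The average of the 8 profiles was 0.18, -0.22 and -0.26 in the Klf9 +/+ replicates and 0.24, -0.21 and 0.26 in the Klf9 f/f replicates. The member nearest to this average over the 6 samples was Abat, with a root mean square difference of 0.086, and the farthest was Slc6a11, at 0.25. Among all genes tested outside the lists, the 5 nearest were Atp6v1c2, Spats1, Echdc1, Lphn3 and Dtna, at 0.017 to 0.044. Atp6v1c2 and Spats1 had low means of 0.78 and 3.03 CPM. These 5 were picked from all genes for this closeness over 6 values, and a link to the members was not tested. The mean log2 CPM of the astrocyte markers was also higher in replicate 1 than in replicate 2 within YTa22. It was 8.57 against 8.27 in Klf9 +/+ and 8.96 against 8.42 in Klf9 f/f, so this pattern was not particular to the members.

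**Figure D4:**
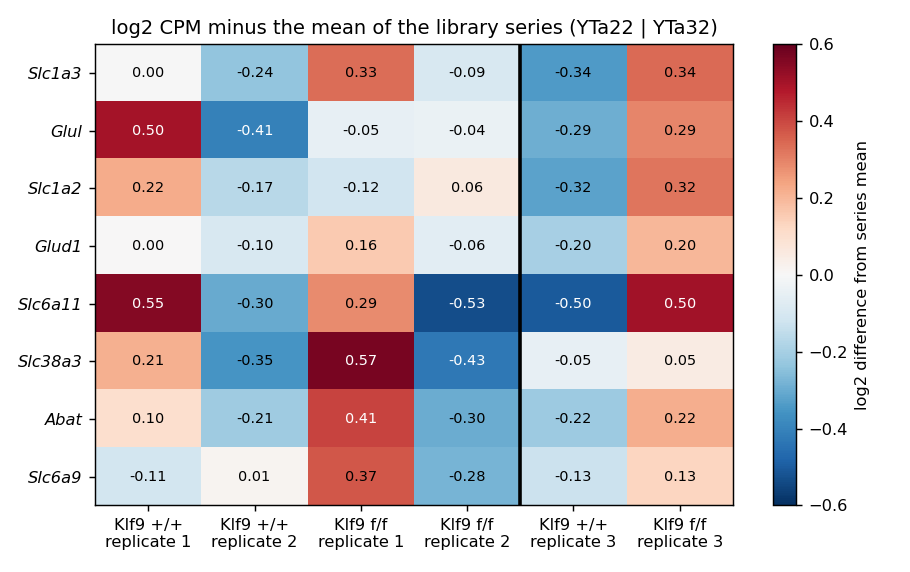
Log2 CPM of each gene in each sample minus the mean of that gene in the library series (columns left of the line YTa22, right YTa32; red above, blue below the mean). Klf9 f/f replicate 1 is above the series mean for 6 genes and Klf9 f/f replicate 2 below it for 7.

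Some lists of cell markers, that of astrocytes among them, held genes called between the genotypes, and their part in the members' values was not tested. The summed level of 15 astrocyte markers, none of them a member, was 10211 to 12836 CPM in Klf9 +/+ and 13082 to 15816 CPM in Klf9 f/f. Aldoc alone gave 3131 to 5617 CPM of that sum in Klf9 +/+ and 4805 to 6211 CPM in Klf9 f/f. The next highest, Gfap, was at 1866 to 3108 against 2268 to 4026 CPM. Over both series the genotypes overlapped for Aldoc and for Gfap. Within each series, however, all Klf9 f/f samples lay above all Klf9 +/+ samples for both genes, and both were called higher. Of the 15 astrocyte markers, 3 were separated upward in this way and 0 downward. Of the 15 astrocyte markers 6 were called higher, with a median log2 fold change of 0.36 over the 15. Relative to the mean log2 CPM of these markers in the same sample, all 8 members were lower in Klf9 f/f within YTa22, by 0.032 for Slc1a3 up to 0.52 for Slc6a11, while in YTa32 4 members were higher and 4 lower. The marker mean itself was higher in Klf9 f/f, by 0.27 in YTa22 and 0.46 in YTa32. Any gene that rose by less than this counts as lower, and the share of all genes that do so was not counted. For 12 choroid plexus markers, 12 of 12 were called lower and the sum was 131 to 2703 CPM in Klf9 +/+ and 20.5 to 406 CPM in Klf9 f/f. Of 15 endothelial and mural markers 7 were called lower (277 to 864 against 195 to 403 CPM). So were 2 of 10 meningeal markers (12161 to 16733 against 7408 to 11519 CPM) and 3 of 8 ependymal markers (33.7 to 79.1 against 41.8 to 47.4 CPM). In the meningeal sum Ptgds alone gave 11075 to 15852 CPM in Klf9 +/+ and 6854 to 10353 CPM in Klf9 f/f. The next highest, Dcn, overlapped between genotypes, at 331 to 613 against 193 to 435 CPM. None of the 12 radial glia, 11 granule neuron, 9 microglia or 8 interneuron markers tested was called. Among 10 oligodendrocyte markers 2 were called higher and 1 lower. Over all genes tested, 1.82% were called higher and 2.5% lower. No marker on any list was at 0 in all samples.

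Beyond the members, 48 other genes of glutamate, GABA, glycine and serine handling were followed, of which 46 were tested. At the 1.2-fold threshold 2 of the 46 were called higher (4.35%) and 1 lower (2.17%), shares that rest on 3 genes. Over all genes tested the shares were 1.82% and 2.5%. Of the 46, 0 passed an adjusted p under 0.05 in edgeR's quasi-likelihood test. In all, 35 of the 46 had a positive log2 fold change, with a median of 0.089. Over all genes tested 7553 of 15056 were positive, with a median of 0.00084.

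Of 11 tested genes on the list of glutamate carriers and their relatives, 1 was called, Slc7a11, the cystine-glutamate exchanger that releases glutamate in return for cystine. It was at 56.4, 87.2 and 124.9 CPM in Klf9 +/+, and in Klf9 f/f it was at 66.4, 34.4 and 60.7 CPM. Klf9 f/f replicate 1 lay above Klf9 +/+ replicate 1, so the genotypes overlapped within YTa22. The log2 fold change was -0.69 ± 0.26 (SE, unadjusted p = 0.0279, adjusted p = 1.00, edgeR's quasi-likelihood test). It was not called without the series term, in YTa22 alone, or without Klf9 +/+ replicate 3, Klf9 f/f replicate 2 or Klf9 f/f replicate 3. Slc25a18, a mitochondrial glutamate carrier, had the highest level per kb of the 48 genes, 188.7 CPM per kb, and a log2 fold change of 0.32 ± 0.14 (SE) that did not pass. The vesicular carrier Slc17a8 was below 1 CPM in every sample and was not tested.

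Among 15 genes of glutamate and glutamine metabolism, 2 were called higher. Pc, the pyruvate carboxylase with which glia build new carbon skeletons for glutamate, was at 193.8, 161.2 and 254.3 CPM in Klf9 +/+, and in Klf9 f/f it was at 306.3, 192.2 and 374.9 CPM. Its Klf9 f/f replicate 2 lay just under Klf9 +/+ replicate 1, and the log2 fold change was 0.51 ± 0.18 (SE, unadjusted p = 0.0208, adjusted p = 1.00, edgeR's quasi-likelihood test). Aldh4a1, the last step from proline to glutamate, had a log2 fold change of 0.43 ± 0.14 (SE). Neither was called without the series term. At most 1 of the 2 was called in YTa22 alone or without Klf9 +/+ replicate 2, Klf9 +/+ replicate 3 or Klf9 f/f replicate 3. Oat, which turns ornithine towards glutamate, was at 141 CPM per kb with a log2 fold change of 0.21 ± 0.15 (SE).

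None of the 9 GABA genes and none of the 11 tested glycine and serine genes was called, with median log2 fold changes of 0.15 and 0.13. All 11 of the glycine and serine genes had a positive value, where 7553 of the 15056 genes tested did. Phgdh, the first enzyme of serine synthesis, and Gcsh, a protein of the glycine cleavage system, were the most abundant of them, at 179 and 122.7 CPM per kb, with log2 fold changes of 0.31 (standard error 0.18) and 0.071 (0.13). Slc6a5, the neuronal glycine carrier, was below 1 CPM in every sample.

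**Figure D5:**
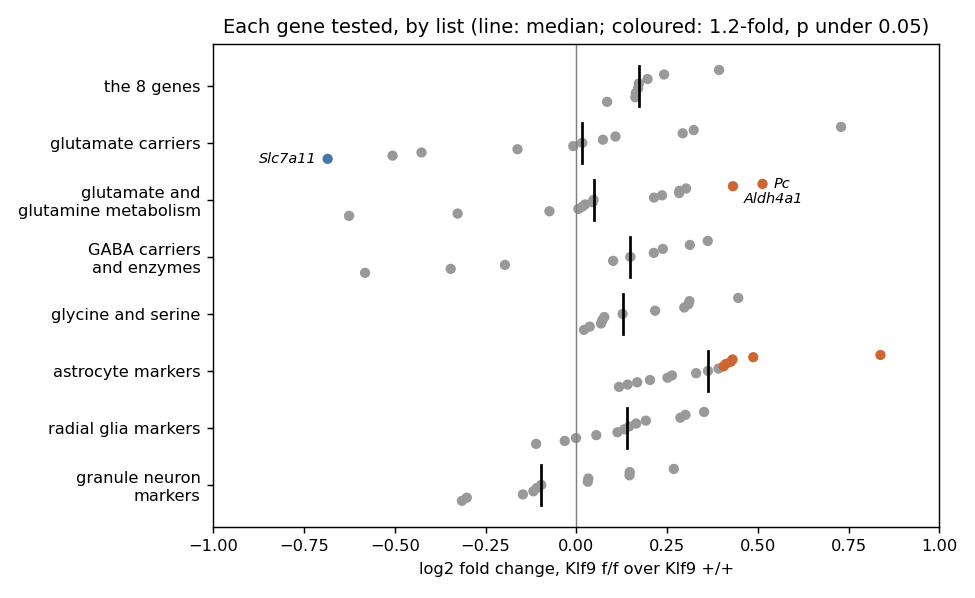
Log2 fold change (Klf9 f/f over Klf9 +/+) of every gene tested, one point per gene, for the 8 members, the other genes of these pathways and 3 lists of cell markers; black lines are medians, and coloured points passed 1.2-fold and an unadjusted p under 0.05 (orange higher, blue lower). The median is 0.17 for the 8 members and 0.36 for the astrocyte markers, and Slc7a11, Pc and Aldh4a1 are the coloured points among the pathway genes.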

How the data were processed

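Ribosome-bound mRNA of 3 Klf9 +/+ and 3 Klf9 f/f pools was sequenced as 50 bp reads, which the authors mapped with STAR to mm9 and counted per gene with HTSeq 0.6.0, ignoring strand. The authors deposited unnormalized counts. The 5 summary lines of HTSeq, 16.4% to 26.6% of the reads listed per sample, were left out. Symbols and exon lengths came from GENCODE M1, of the same build, for 37205 of 37620 identifiers. Pc is listed there as Pcx.

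The 15056 genes that exceeded 1 CPM in 1 sample or more entered the tests. Counts were fitted with edgeR 4.0.16 under R 4.3.3 (TMM, glmQLFit, glmQLFTest) with library series and genotype as terms and 3 residual degrees of freedom. P-values and intervals used the total degrees of freedom of the test, which exceed 3 because edgeR also borrows spread across genes. The standard error is the log2 fold change over the root of F. Calls required 1.2-fold and p under 0.05, as in the study's methods, and Benjamini-Hochberg adjusted p-values cover all genes tested. Log2 CPM used a prior count of 2. The fits were first tested on simulated data. Alternatives were DESeq2 1.42.0, the likelihood-ratio test, other scalings and filters, a fit without the series term, YTa22 alone and each sample left out. P-values measure the spread between these pools, part of which may be technical, together with the spread shared across genes.

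The members, lists and tests were chosen with earlier results of these data known. Named pathway genes are those called, the 4 of highest level per kb and those under 1 CPM throughout. Promoter windows came from RefSeq (GRCm38.p6). Figures used matplotlib 3.10.9.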

Additional observations from a re-analysis of the deposited data

Results flagged for a closer look

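The genotype difference of Slc6a11, the glial GABA carrier, had an estimate 1.26 higher in series YTa32 than in YTa22 on the log2 scale (edgeR's quasi-likelihood test of the interaction, unadjusted p = 0.0444, adjusted p = 1.00). It was 1.01 in YTa32, from 1 sample of each genotype, and -0.25 in YTa22, where pools of 1 genotype differed by 0.85 (Klf9 +/+) and 0.82 (Klf9 f/f). A difference between series cannot be told apart from a deviant pool in YTa32. With upper-quartile factors or library size alone the interaction did not pass an unadjusted p under 0.05.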

How the results depend on the processing

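Over 14 alternatives the median log2 fold change of the 8 members stayed positive. It was 0.37 without Klf9 f/f replicate 2 and 0.36 without Klf9 +/+ replicate 1, and 0.11 to 0.19 in the others, against 0.17. The count of members called higher was 0, and it was 1 with the likelihood-ratio test, 1 with DESeq2, 1 with library size alone and 1 with no filter beyond 1 count, Slc1a3 each time, and 0 to 2 with each sample left out. No alternative called a member lower. In series YTa22 alone Glul was at -0.17, Slc1a2 at -0.072 and Slc6a11 at -0.26. With each sample left out, Glul ranged from -0.17 to 0.46, Slc1a2 from -0.072 to 0.35, Slc6a11 from -0.26 to 0.56, Slc38a3 from -0.18 to 0.40 and Slc6a9 from -0.019 to 0.35. Slc1a3 (0.25 to 0.55), Glud1 (0.091 to 0.29) and Abat (0.049 to 0.45) kept a positive value in all 14. Leaving out replicate 3 of either genotype leaves YTa32 with 1 sample, which the series term absorbs, so that these fits rest on YTa22.

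Pathway genes called higher, 2 as reported, numbered 0 without the series term, 5 with no filter beyond 1 count, 1 in YTa22 alone and 1 to 7 with each sample left out (7 without Klf9 f/f replicate 2 and 6 without Klf9 +/+ replicate 1). Those called lower, 1 as reported, numbered 0 without the series term, 2 with DESeq2, 5 with no filter, 0 in YTa22 alone and 0 to 6 with each sample left out (6 without Klf9 f/f replicate 1). The interaction, whose alternatives were chosen after seeing the data, passed for 1 member as reported and for 0 with upper-quartile factors and 0 with library size alone. Over all genes, 274 were called higher and 376 lower as reported, 50 and 163 without the series term, 163 and 202 in YTa22 alone, 513 and 926 with no filter, and 130 to 493 and 209 to 719 with each sample left out (130 and 719 without Klf9 f/f replicate 1, 493 and 274 without Klf9 f/f replicate 2). The causes were not tested. No paired analysis was possible because the labels give no replicate numbers, those used here being names in accession order, and library series was already a term of the fit. With 3 samples a genotype, the 95% interval of a member's log2 fold change was at best -0.12 to 0.51 (Glud1).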
